A study of Mus musculus with 14 samples.

Results

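Cdkn1c and 9 further genes that govern passage through the G1 phase of the cell cycle were followed in mouse neural stem cells with and without Cic, each kept with or without epidermal growth factor (EGF). The 10 genes were chosen by name: the CDK inhibitors Cdkn1c, Cdkn1b, Cdkn2a and Cdkn2c, the D cyclins Ccnd1, Ccnd2 and Ccnd3, their partner kinases Cdk4 and Cdk6, and the retinoblastoma gene Rb1. The choice was made with earlier results of these data known, so their counts beside the shares of all genes are descriptive. All 10 were among the 17364 genes tested on the arrays, and each gene was given the median log2 value over those probesets that name no other gene. Cic encodes a transcriptional repressor whose activity is relieved by receptor tyrosine kinase signalling. The cells were derived from the subventricular zone (SVZ) at postnatal day 4, and total RNA was measured on Affymetrix arrays.

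The 14 arrays formed 4 groups from 7 clones, each clone a culture established from an individual animal and then transduced with adenoviral Cre. Clones 1 to 4 were Cic+/+ and clones 5 to 7 were Cic-/-, and the exposure to Cre was shared by both genotypes. Each clone gave 1 array of cells kept for 24 h in proliferation medium with EGF and 1 array of cells kept for 24 h in the same medium without it. Both Cic+/+ groups therefore held 4 arrays and both Cic-/- groups 3, and the number of arrays limits the precision. A clone here is a culture from 1 animal, so that a genotype difference rests on 4 animals against 3.

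Progress through G1 depends on D cyclins, which bind CDK4 and CDK6, and the active kinases phosphorylate the retinoblastoma protein and release E2F transcription factors. Growth factor signalling is known to keep D cyclin transcription high, and Cip/Kip inhibitors (the products of Cdkn1a, Cdkn1b and Cdkn1c) and INK4 inhibitors (among them those of Cdkn2a and Cdkn2c) restrain the kinases. In the oligodendrocyte lineage Cdkn1c and Cdkn1b are known to accompany exit from the cell cycle and differentiation.

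The genotype part of the labels was checked on Cic itself. Its log2 level lay between 9.18 and 9.69 on the 8 Cic+/+ arrays and between 7.04 and 7.67 on the 6 Cic-/- arrays, so each array matched the genotype in its label. Cic levels with and without EGF overlapped in each genotype, so they do not check the EGF part of a label. The neural stem cell markers Nes, Sox2, Vim, Fabp7, Slc1a3, Msi1, Pax6 and Egfr were above the limit for dim genes on all 14 arrays. The mean level of 5 microglial markers stayed between 4.69 and 5.25 and that of the endothelial markers between 4.45 and 4.98, near the dim limit of 4.40. Still, 3 of the 5 microglial and 2 of the 4 endothelial markers were above this limit on all 14 arrays. The mean was 4.93 to 5.56 for 4 fibroblast and pericyte markers and 5.425 to 5.941 for 3 ependymal markers. In each of these 2 lists 2 markers were above the limit on all 14 arrays. Array medians ranged from 6.49 to 6.54, and correlations between arrays over genes from 0.959 to 0.988.

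The promoter sequences are shown for Cdkn2a, since this gene has separate starts for its products and its probesets divided into differing patterns in the data. Both come from RefSeq (GRCm38.p6, minus strand) and cover 250 bases before to 50 bases after the start, and capitals mark the match to an E2F site. The upstream start, known to begin the transcript for p19Arf, lies at chr4:89294570-89294869, and the downstream start, known for p16Ink4a, lies at chr4:89282143-89282442.
Cdkn2a start 1: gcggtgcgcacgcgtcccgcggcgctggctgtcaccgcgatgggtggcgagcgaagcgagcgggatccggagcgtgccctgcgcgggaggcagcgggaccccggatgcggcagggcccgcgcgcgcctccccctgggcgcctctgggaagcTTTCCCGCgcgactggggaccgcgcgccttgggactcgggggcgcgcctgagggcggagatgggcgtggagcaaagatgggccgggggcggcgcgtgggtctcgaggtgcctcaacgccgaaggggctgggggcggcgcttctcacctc
Cdkn2a start 2: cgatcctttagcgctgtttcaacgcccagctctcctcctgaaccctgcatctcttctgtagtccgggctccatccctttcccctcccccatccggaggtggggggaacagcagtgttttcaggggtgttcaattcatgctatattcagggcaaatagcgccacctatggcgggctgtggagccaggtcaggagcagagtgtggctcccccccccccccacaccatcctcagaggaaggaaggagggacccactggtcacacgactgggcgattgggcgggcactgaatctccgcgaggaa
The upstream promoter was 77% G or C with 45 CpG dinucleotides, and the downstream promoter 60.3% with 12. The E2F letters searched were TTTCCCGC, TTTGGCGC, TTTCGCGC and TTTGCCGC on both strands. The upstream promoter held 1 match at position -99 from the start, and 2.26% of the 32851 mouse promoters of the same length held at least 1.

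Promoters of 6 of the 10 genes, with 9 starts in all, were matched in the same table: Cdkn1b, Cdkn2a, Cdkn2c, Ccnd3, Cdk4 and Cdk6. The octamers bound by CIC, TGAATGAA and TGAATGGA, were in none of these 9 windows and in 2.47% of all promoters. The AP-1 letters TGACTCA and TGAGTCA were likewise in none of the 9 and in 5.2% of all promoters. The FOXO letters GTAAACA were found once, at -243 in the first Ccnd3 promoter, and in 3.65% of all promoters. A match describes letters in a window and nothing about binding. Promoters of Cdkn1c, Ccnd1, Ccnd2 and Rb1 were not analysed here.

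Cdkn1c, which encodes the Cip/Kip inhibitor p57, was the gene that passed the test, and it did so between genotypes without EGF and for EGF in Cic+/+ clones, but not in the test of whether the EGF effect differed between genotypes. In Cic+/+ clones 1 to 4 its log2 level was 5.98, 5.76, 6.96 and 5.73 with EGF. Without EGF the same clones gave 7.37, 7.56, 8.30 and 8.07. All 4 Cic+/+ arrays without EGF were above all 4 with it, and each clone was lower with EGF. For Cic-/- clones 5 to 7 the level was 6.17, 6.07 and 5.45 with EGF. Without EGF these clones gave 5.50, 6.66 and 6.34. The Cic-/- groups overlapped, and all 6 Cic-/- arrays were below the 4 Cic+/+ arrays without EGF. Without EGF it was the 1 of the 10 genes whose genotypes did not overlap, where 9.38 percent of all genes did not. Group means were 6.11 ± 0.58 (SD, n = 4) in Cic+/+ with EGF, 7.82 ± 0.43 (SD, n = 4) in Cic+/+ without EGF, 5.90 ± 0.39 (SD, n = 3) in Cic-/- with EGF and 6.17 ± 0.60 (SD, n = 3) in Cic-/- without EGF.

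**Figure D1:**
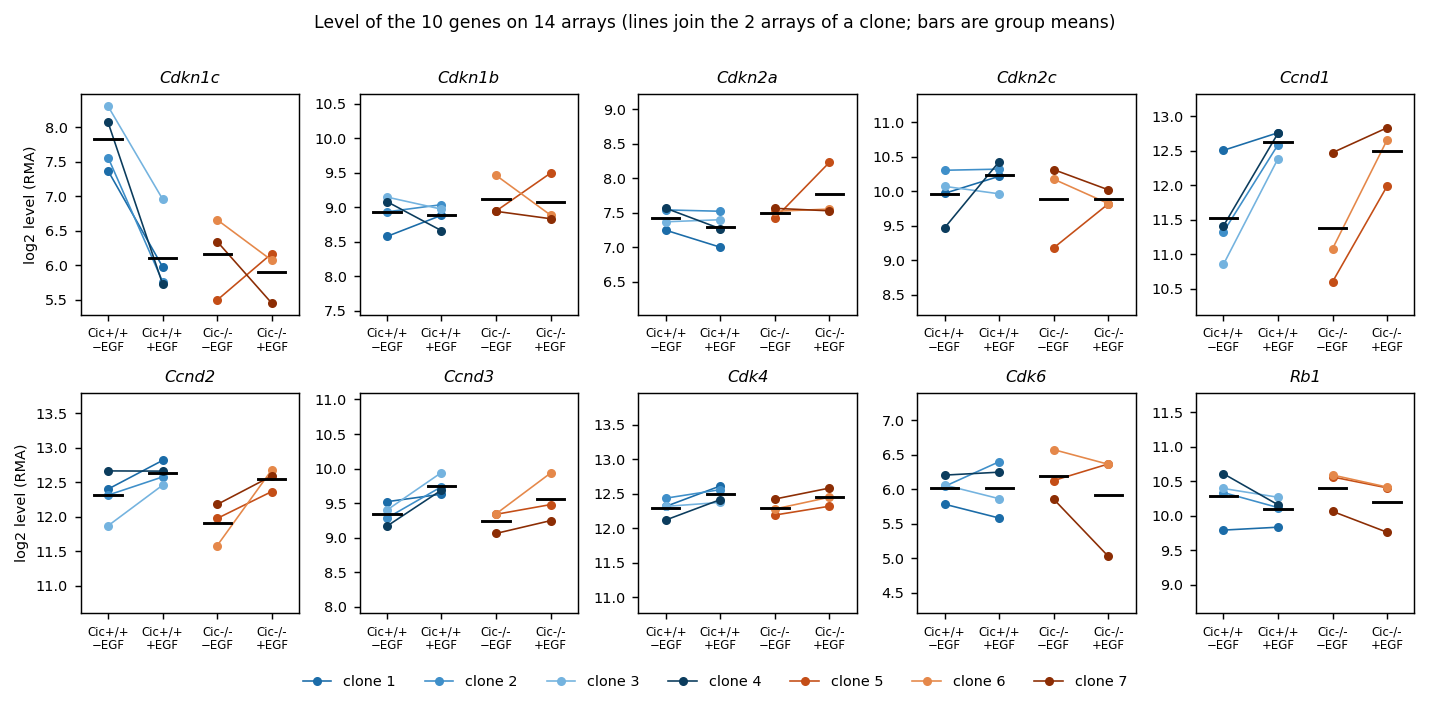
Log2 level of each of the 10 genes on every array, by genotype and EGF, with a point per array, lines joining the arrays of a clone, and bars for group means. Cdkn1c stands at 7.37 to 8.30 in Cic+/+ clones without EGF and at 5.45 to 6.96 on the 10 other arrays, whereas the Ccnd1 lines slope the same way in all 7 clones.

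In cells kept without EGF, Cdkn1c was 3.16-fold lower in Cic-/- than in Cic+/+ clones (log2 difference -1.66 ± 0.34 SE, 95% interval -2.40 to -0.92, limma adjusted p = 0.0480, Benjamini-Hochberg over all genes tested). It was the 1 of the 10 that passed in this comparison, against 0.553 percent of all genes tested, and the 1 of the 10 at an unadjusted p under 0.05, where 10.8 percent of all genes stood. Since the 10 were chosen with earlier results known, these counts are no test against the shares. The Cdkn1c call is close to the threshold: leaving out any 1 of the 7 clones gave adjusted p between 0.0583 and 0.155, with a difference between -1.91 and -1.32. In cells with EGF, none of the 10 passed between the genotypes by limma, where 0.317 percent of all genes passed. At an unadjusted p under 0.05 there was 1, Cdkn2a, where 10.6 percent of all genes stood. The Cdkn1c difference with EGF was -0.21 (limma adjusted p = 0.885).

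Cdkn1c fell 3.29-fold with EGF in Cic+/+ clones (log2 difference -1.72 ± 0.32 SE, limma adjusted p = 0.0202). It was again the 1 of the 10 that passed, where 0.898 percent of all genes passed. Cdkn1c, Ccnd1 and Ccnd3 were the 3 at an unadjusted p under 0.05, where 12.5 percent of all genes stood. With the clone as a random block, which compares the arrays of 1 clone with each other, the adjusted p was 0.0021 and 2 of the 10 passed, Cdkn1c and Ccnd1, where 5.17 percent of all genes passed. A fixed block gave the same 2, where 5.58 percent of all genes passed. Without clone 2 the Cdkn1c adjusted p was 0.168, and without clone 4 it was 0.184. In Cic-/- clones the difference was -0.27 (limma adjusted p = 0.886), and none of the 10 passed, where 0.19 percent of all genes passed. Ccnd1 and Ccnd2 were the 2 of the 10 at an unadjusted p under 0.05, where 9.8 percent of all genes stood. With clone blocks, random or fixed, none of the 10 passed there either, where 2.08 and 2.99 percent of all genes passed. The genotype comparison without EGF and the EGF comparison in Cic+/+ share the 4 Cic+/+ arrays without EGF, so the values of Cdkn1c in them are not independent of each other.

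The EGF difference of Cdkn1c (with minus without) was -1.39, -1.80, -1.35 and -2.34 in Cic+/+ clones 1 to 4. The Cic-/- clones 5 to 7 gave 0.67, -0.59 and -0.89, so the genotypes did not overlap at the median over probesets. The difference between the genotypes was 1.45 ± 0.49 SE (95% interval 0.41 to 2.49), with an unadjusted limma p of 0.0098 and an adjusted p of 1. No gene of the 10 passed this test of the interaction, which 0.00576 percent of all genes passed. Cdkn1c was the 1 of the 10 at an unadjusted p under 0.05 and the 1 whose EGF differences did not overlap between genotypes, where 2.86 percent and 6.25 percent of all genes stood. A two-sided exact permutation test over the 7 clones gave 0.0286, the smallest p that 4 against 3 allows. With the clone as a random block the adjusted p was 0.480 and with a fixed block 0.436, and none of the 10 passed with either, where 0.0403 and 0.0173 percent of all genes passed.

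**Figure D2:**
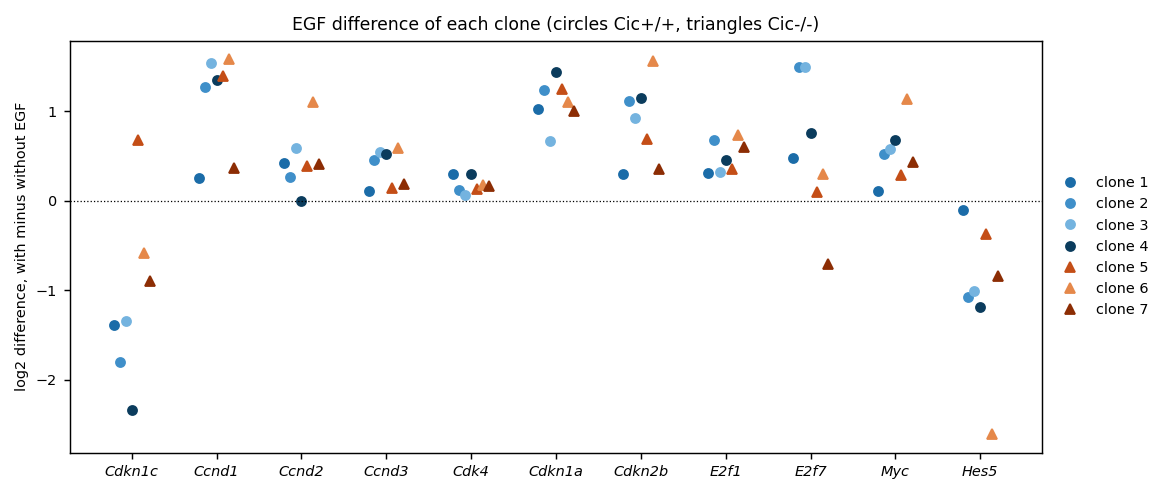
EGF difference (log2 level with EGF minus without, dotted line at 0) in each of the 7 clones for Cdkn1c, the D cyclins, Cdk4 and 6 genes of the lists described further on, circles for Cic+/+ and triangles for Cic-/- clones. Cdkn1c lies between -2.34 and -1.35 in Cic+/+ clones and between -0.89 and 0.67 in Cic-/- clones, and Ccnd1, Ccnd3 and Cdk4 are above 0 in all 7.

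Cdkn1c has 5 probesets on the array, and all 5 were lower in both comparisons in which the gene passed. The EGF difference in Cic+/+ clones ran from -2.29 to -0.53 over the 5, and the genotype difference without EGF from -2.27 to -0.50. Fitted singly among 175314 probesets, 1 of them passed for EGF in Cic+/+ (limma adjusted p = 0.0353), where 0.291 percent of all probesets passed, and the same probeset gave 0.0538 for genotype without EGF, where 0.267 percent of all probesets passed. On this probeset the arrays of the genotypes were also separate with EGF, at 5.65 to 6.96 in Cic+/+ and 4.34 to 5.21 in Cic-/- clones. It was the 1 of the 5 separate with EGF, where 10.7 percent of all probesets were separate. Its EGF difference was 0.05, -2.32 and -1.33 in Cic-/- clones 5 to 7 and -2.8 to -1.86 in Cic+/+ clones. The EGF differences of the genotypes thus overlapped on it through clone 6. Over the 5 probesets the mean EGF difference in Cic-/- clones ran from -1.20 to 0.38. The genotype difference with EGF ran from -1.18 to 0.22 over the 5, and 2 of them were higher in Cic-/- clones. When the gene was read from its brightest probeset alone, it did not pass in either comparison, at -0.72 (limma adjusted p = 0.238) for genotype and -0.75 (adjusted p = 0.149) for EGF.

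Of the tested genes that are not predicted and have more than 1 probeset, the 5 with levels most like Cdkn1c over the 14 arrays were Slc13a3 (Pearson r = 0.92), Mbp (0.92), Myrf (0.91), Nfasc (0.89) and Zfp488 (0.89). Mbp encodes myelin basic protein, Myrf is a transcription factor of myelin genes, Nfasc encodes neurofascin and Zfp488 is a transcription factor of the oligodendrocyte lineage. The arrays share the 4 group means and each clone gave 2 of them. With the group means removed the values were 0.78, 0.65, 0.48, 0.38 and 0.64 in the same order.

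**Figure D3:**
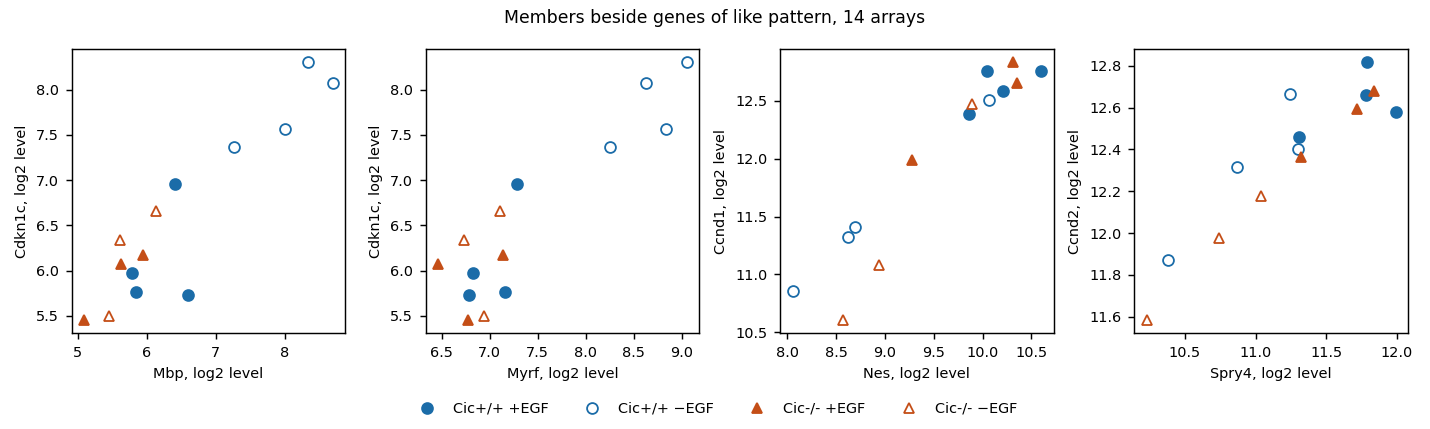
Log2 level of Cdkn1c against those of Mbp and Myrf, of Ccnd1 against that of Nes, and of Ccnd2 against that of Spry4, 1 point per array (circles Cic+/+, triangles Cic-/-, filled with EGF, open without). The 4 Cic+/+ arrays without EGF lie apart at the upper right for Cdkn1c (7.37 to 8.30), whereas for Ccnd1 the arrays without EGF of both genotypes lie at the lower left except those of clones 1 and 7, at 12.51 and 12.47.

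The mean log2 level of the 5 myelinating markers Mbp, Mag, Mog, Cldn11 and Enpp6 was 7.31 to 7.90 in Cic+/+ clones without EGF. It was 5.56 to 5.98 in Cic+/+ clones with EGF, 5.13 to 5.45 in Cic-/- clones with EGF and 5.06 to 5.49 in Cic-/- clones without EGF. The first group thus stood above every other array, as it did for Cdkn1c. Enpp6, a marker of newly differentiating oligodendrocytes, lay at 8.34 to 8.67 there and at 4.00 to 5.21 on the other arrays, around the dim limit. Mog lay at 5.01 to 5.38 there and at 4.66 to 5.76 elsewhere, with overlap. The mean of the oligodendrocyte progenitor markers was 10.40 to 10.60 in Cic+/+ without EGF, 10.27 to 10.66 in Cic+/+ with EGF, 9.19 to 9.83 in Cic-/- with EGF and 9.85 to 10.66 in Cic-/- without EGF. Astrocyte markers had a mean of 9.65 to 10.19 in Cic+/+ without EGF, 8.26 to 9.18 in Cic+/+ with EGF, 8.47 to 8.67 in Cic-/- with EGF and 8.95 to 9.57 in Cic-/- without EGF. Neuroblast and neuron markers had a mean of 6.95 to 7.08 in Cic+/+ without EGF, 6.58 to 6.87 in Cic+/+ with EGF, 6.32 to 6.53 in Cic-/- with EGF and 7.06 to 7.26 in Cic-/- without EGF, so that each genotype was higher without EGF with no overlap. The part of these cell types in the Cdkn1c result was not tested, and in bulk RNA fewer cells of a type and less RNA per cell cannot be told apart.

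Mbp, chosen for its likeness to Cdkn1c on these arrays, is described by clone with no test. Its EGF difference was -1.49, -2.16, -1.93 and -2.10 in Cic+/+ clones 1 to 4 and 0.50, -0.51 and -0.52 in Cic-/- clones 5 to 7. Clone 5 was the clone with a positive difference for both genes.

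Cyclin D1, the product of Ccnd1, is the D cyclin best known as a target of growth factor signalling. Its log2 level in Cic+/+ clones 1 to 4 was 12.76, 12.59, 12.38 and 12.75 with EGF and 12.51, 11.32, 10.85 and 11.41 without. Clones 5 to 7 (Cic-/-) were at 11.99, 12.66 and 12.83 with EGF and at 10.60, 11.08 and 12.47 without. Clones 1 and 7 stayed high without EGF, and through them the groups with and without EGF overlapped in both genotypes. Every one of the 7 clones was nonetheless higher with EGF. Among the 10 genes, the sign of the EGF difference was shared by all Cic+/+ clones for 4 (Cdkn1c, Ccnd1, Ccnd3 and Cdk4), where 28.9 percent of all genes shared it. It was shared by all Cic-/- clones for 5 (Ccnd1, Ccnd2, Ccnd3, Cdk4 and Rb1), where 36.8 percent did. Ccnd1, Ccnd3 and Cdk4 were the 3 that shared it in all 7 clones, where 13.5 percent of all genes did.

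The Ccnd1 difference was 1.10 ± 0.38 SE in Cic+/+ clones, 2.14-fold (limma adjusted p = 0.224). In Cic-/- clones it was 1.11 ± 0.44 SE, 2.15-fold (limma adjusted p = 0.404). With the clone as a random block the Cic+/+ difference passed (adjusted p = 0.0461) and the Cic-/- difference did not (adjusted p = 0.106). The EGF effects of the genotypes differed by 0.01 ± 0.58 SE (95% interval -1.24 to 1.26), a width that leaves room for a difference of the size of the effect itself. Ccnd1 did not pass between genotypes, with a difference of -0.13 ± 0.41 SE with EGF and -0.14 ± 0.41 SE without. All 7 of its probesets were higher with EGF in all 7 clones, a count for which no share of all probesets was computed.

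Per clone, the EGF difference of Ccnd1 was 0.25, 1.26, 1.53, 1.34, 1.39, 1.58 and 0.36 in clones 1 to 7. Clones 1 and 7 had the smallest values, and they belong to different genotypes. They also had the narrowest spread of EGF differences over all genes tested, with an SD of 0.398 and 0.404 where the other 5 clones had 0.433 to 0.524. A two-sided exact sign-flip permutation test over the 7 clones gave 0.0156, the smallest p that 7 clones allow. Any gene with 1 sign in all 7 clones gets this value, as Ccnd3 and Cdk4 did, so it adds nothing to the shared sign. Such a sign was shared by 13.5 percent of all genes.

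Nes, which encodes the intermediate filament nestin of neural stem cells, was among the 5 genes with levels most like Ccnd1 (r = 0.95 over 14 arrays, 0.94 with the group means removed). The others were Ccdc9b (0.97), Slc5a3 (0.96), Ttc7 (0.96) and Tmem41a (0.95). The EGF difference of Nes was 0.53, 1.58, 1.80, 1.35, 0.70, 1.40 and 0.42 in clones 1 to 7, with clones 1 and 7 lowest, a likeness by which the gene was chosen. Slc5a3, a myo-inositol transporter, gave 0.13 in clone 1 and 0.11 in clone 7, and the other 5 clones ranged from 0.83 to 1.72.

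Ccnd2 encodes cyclin D2, the D cyclin best known in neural progenitors. In Cic+/+ clones 1 to 4 it was at 12.82, 12.58, 12.46 and 12.66 with EGF and at 12.40, 12.31, 11.87 and 12.66 without. Clones 5 to 7 (Cic-/-) stood at 12.37, 12.68 and 12.59 with EGF and at 11.98, 11.58 and 12.18 without. The Cic-/- groups did not overlap, whereas in Cic+/+ clone 4 the values with and without EGF were the same to 2 decimals. The EGF difference was 0.63 ± 0.20 SE in Cic-/- clones (limma adjusted p = 0.283) and 0.32 ± 0.18 SE in Cic+/+ clones (adjusted p = 0.505), and neither passed. Without EGF the Cic-/- clones stood 0.40 lower (log2 difference -0.40 ± 0.19 SE, limma adjusted p = 0.478).

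The gene with levels most like Ccnd2 was Spry4, which encodes a feedback inhibitor of receptor tyrosine kinase signalling (r = 0.92 over 14 arrays, 0.88 with the group means removed). Casp8, Mrpl17, Serbp1 and Kitl followed at 0.86, 0.86, 0.85 and 0.85. Kitl encodes the ligand of the Kit receptor. Spry4 was at 11.31 to 11.99 on the arrays with EGF and 10.23 to 11.30 on those without.

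Ccnd3, for cyclin D3, was at 9.63, 9.74, 9.94 and 9.69 with EGF and at 9.52, 9.28, 9.40 and 9.17 without in Cic+/+ clones 1 to 4, with no overlap. Clones 5 to 7 (Cic-/-) had 9.48, 9.93 and 9.25 with EGF and 9.34, 9.34 and 9.06 without, with overlap. The EGF difference was 0.41 ± 0.15 SE in Cic+/+ (limma adjusted p = 0.277) and 0.31 ± 0.18 SE in Cic-/- clones (adjusted p = 0.648). Per clone it was positive in all 7, from 0.11 in clone 1 to 0.59 in clone 6.

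**Figure D4:**
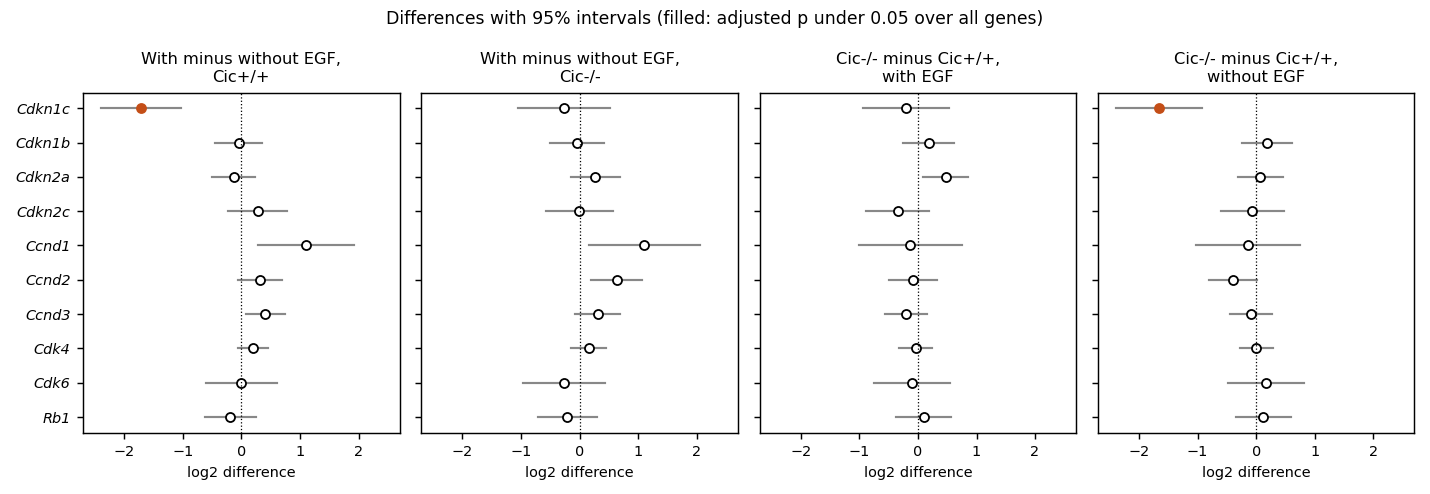
Log2 difference of each of the 10 genes for EGF in each genotype and for genotype with and without EGF, as points with 95% intervals from the limma fit, filled where the adjusted p was under 0.05. Cdkn1c is filled for EGF in Cic+/+ clones and for genotype without EGF (interval -2.40 to -0.92), and the D cyclins lie to the right of 0 in both EGF comparisons.

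Over both genotypes together, in a comparison added after the data had been seen, EGF changed 1 of the 10 genes, where 3.91 percent of all genes passed. At an unadjusted p under 0.05 there were 4, where 18 percent of all genes stood. The gene that passed was Cdkn1c, with an average difference of -0.99 ± 0.24 SE (limma adjusted p = 0.0354). This average joins -1.72 in Cic+/+ and -0.27 in Cic-/- clones, where clone 5 was higher with EGF by 0.67. Read from its brightest probeset, Cdkn1c gave an average of -0.28. Ccnd1 missed the threshold at 1.10 ± 0.29 SE (adjusted p = 0.0505). With the clone as a random block 4 of the 10 passed, where 11.5 percent of all genes passed (with a fixed block 4, where 12.1 percent passed): Cdkn1c fell, and Ccnd1 (adjusted p = 0.0063), Ccnd2 (average difference 0.47, adjusted p = 0.0140) and Ccnd3 (0.36, adjusted p = 0.0265) rose. All 3 D cyclins were therefore higher with EGF in the fit that pairs the arrays of a clone, while the fit without pairing gave them adjusted p of 0.0505, 0.0676 and 0.116.

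CDK4 and CDK6 are the kinases that D cyclins activate, and RB1 is their substrate. Cdk4 was within 12.12 and 12.61 on all 14 arrays. Its EGF difference was small and positive in all 7 clones, from 0.06 in clone 3 to 0.30 in clone 1, and it did not pass in any comparison (0.19 ± 0.12 SE in Cic+/+ and 0.15 ± 0.14 SE in Cic-/- by limma, adjusted p = 0.550 and 0.795). Cdk6 ranged from 5.03 to 6.57, its widest group being Cic-/- with EGF at 6.36, 6.36 and 5.03. Its EGF difference was 0.00 ± 0.28 SE in Cic+/+ and -0.27 ± 0.32 SE in Cic-/- clones. Rb1 ranged from 9.76 to 10.61 and was lower with EGF in 6 of 7 clones, clone 1 being the exception at 0.04. Its average was -0.19 ± 0.20 SE in Cic+/+ and -0.21 ± 0.24 SE in Cic-/- clones (limma adjusted p = 0.775 and 0.849).

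Across the 14 arrays, which share clones and groups, Ccnd1 levels went with those of Ccnd2 (r = 0.75) and Cdk4 (0.72) and against those of Rb1 (-0.75). For Cdkn1c and Ccnd1 the correlation was -0.46. With the group means removed these 4 values were 0.57, 0.48, -0.77 and -0.22.

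Cdkn1b encodes p27, the Cip/Kip inhibitor whose amount is known to be set largely by protein turnover. Its level lay between 8.58 and 9.49 on all arrays, with group means of 8.89 to 9.11 and SDs within groups of 0.16 to 0.37. The EGF difference was -0.05 ± 0.19 SE in Cic+/+ and -0.04 ± 0.22 SE in Cic-/- clones, and the genotype difference 0.18 ± 0.20 SE both with and without EGF. Cdkn2c, for the INK4 inhibitor p18, lay between 9.18 and 10.43. Its EGF differences ran from -0.35 in clone 6 to 0.96 in clone 4, and no comparison passed. On 1 of its 5 probesets the genotypes were separate both with and without EGF, at -0.91 and -0.73 (limma adjusted p = 0.317 and 0.412). Of all probesets 10.7 percent were separate with EGF and 8.57 percent without.

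Cdkn2a was at 7.00, 7.52, 7.40 and 7.27 in Cic+/+ clones 1 to 4 with EGF and at 8.23, 7.55 and 7.53 in Cic-/- clones 5 to 7. The genotypes did not overlap with EGF, although the nearest arrays stood at 7.52 and 7.53, and Cdkn2a was the 1 of the 10 genes of which this was so, where 11.7 percent of all genes did not overlap. Without EGF the levels were 7.25, 7.54, 7.37 and 7.57 in Cic+/+ and 7.42, 7.52 and 7.57 in Cic-/- clones, with overlap. The genotype difference with EGF was 0.47 ± 0.18 SE (95% interval 0.08 to 0.86), which did not pass (limma adjusted p = 0.365). Without clone 5 it was 0.24.

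The 7 Cdkn2a probesets divided into differing patterns, so that the median describes none of them well. Numbered in the order of their array identifiers, probesets 1, 2, 3 and 6 were higher with EGF in all 7 clones, by 0.88 ± 0.16, 0.80 ± 0.32, 0.78 ± 0.45 and 0.93 ± 0.25 (SD over clones, n = 7). Probesets 4, 5 and 7 averaged -0.12, 0.33 and -0.27 and were higher in 2, 5 and 2 of the 7 clones. The share of all probesets that were higher in all 7 clones was not computed. Probeset 6 stood at 9.35, 9.56, 9.27 and 9.16 in Cic+/+ clones with EGF and at 8.59, 8.16, 8.20 and 8.15 without. It stood at 10.02, 9.46 and 9.70 in Cic-/- clones with EGF and at 9.27, 8.69 and 8.98 without. Neither genotype's groups overlapped on it. In Cic+/+ clones probeset 6 rose with EGF by 1.06 ± 0.18 SE (limma adjusted p = 0.0342 over all probesets tested singly).

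Over both genotypes, where 1.89 percent of all probesets passed, probesets 1, 2 and 6 rose with EGF (limma adjusted p = 0.0488, 0.0429 and 0.0085) and probeset 3 gave 0.0636. Between genotypes, probesets 1, 2 and 3 were separate with EGF and higher in Cic-/- clones by 0.76, 0.79 and 0.93, where 10.7 percent of all probesets were separate. None passed (limma adjusted p at least 0.316), where 0.14 percent of all probesets passed. Without EGF the difference was 0.82 at probeset 1 and 0.70 at probeset 6, with separate arrays at both, where 8.57 percent of all probesets were separate. Reading the gene from its brightest probeset turned the Cdkn2a difference with EGF in Cic+/+ clones from -0.13 (adjusted p = 0.817) to 1.06 (adjusted p = 0.0154). The array table used here gives no probeset positions, so which start's transcript each probeset reads was not tested.

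**Figure D5:**
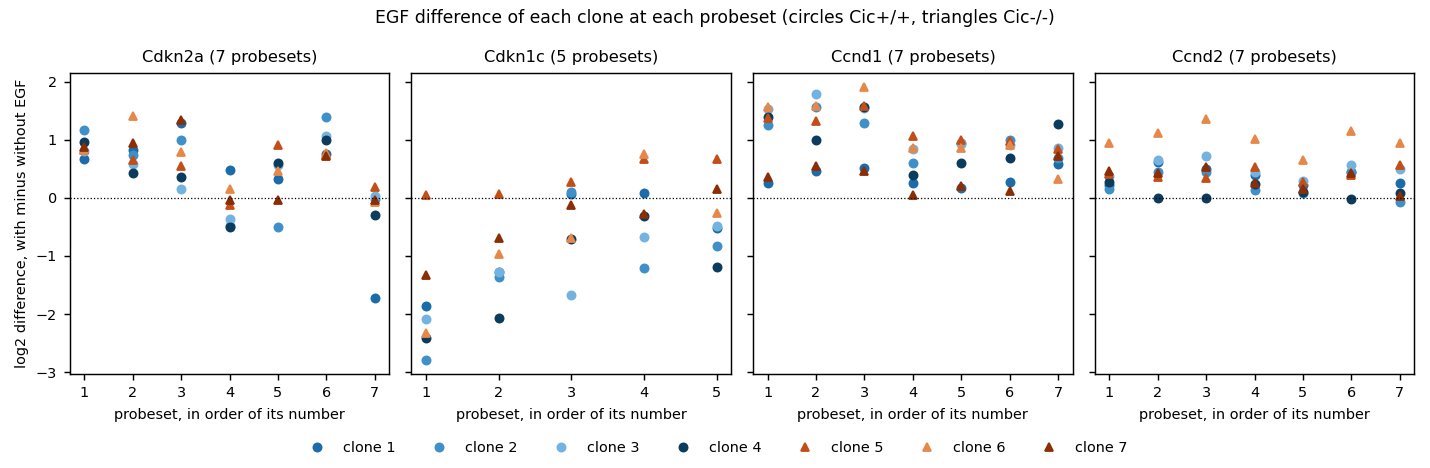
EGF difference (log2, with minus without) of each of the 7 clones at every probeset of Cdkn2a, Cdkn1c, Ccnd1 and Ccnd2, circles for Cic+/+ and triangles for Cic-/- clones. At Cdkn2a probesets 1, 2, 3 and 6 and at all 7 Ccnd1 probesets each clone lies above 0, whereas the clones lie on both sides of 0 at Cdkn2a probesets 4, 5 and 7.

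Of the 7 Ccnd2 probesets 4 were higher with EGF in all 7 clones, as were 7 of the 12 Cdk4 probesets. Of the 26 Rb1 probesets 5 were lower with EGF in all 7 clones. The share of all probesets with the same sign in all 7 clones was not computed, so these counts are descriptive. At the level of genes, 13.5 percent of all genes shared the sign in all 7 clones. With EGF the genotypes were separate on 3 of the 10 Ccnd3 and 3 of the 12 Cdk4 probesets, where 10.7 percent of all probesets were. The separate Ccnd3 probesets differed in direction, and no probeset of either gene passed between genotypes.

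The remaining CDK inhibitors were Cdkn1a, Cdkn2b, Cdkn2d and Cdkn3, and 1 of these 4 passed for EGF in Cic+/+ clones, where 0.898 percent of all genes passed. Cdkn1a, which encodes the Cip/Kip inhibitor p21, rose with EGF in Cic+/+ clones by 1.09 ± 0.19 SE (limma adjusted p = 0.0148). Its EGF difference was 1.02, 1.24, 0.66, 1.44, 1.25, 1.11 and 1.00 in clones 1 to 7, positive in each. In Cic-/- clones the difference was 1.12 ± 0.22 SE (adjusted p = 0.0518, and 0.0052 with the clone as a random block). Without clone 2 the Cic+/+ adjusted p was 0.101, and without clone 4 it was 0.119. Cdkn1a and Cdkn1c, of the same inhibitor family, thus had EGF differences of opposite sign in all 4 Cic+/+ clones.

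Cdkn2b, the INK4 gene for p15 beside Cdkn2a, was higher with EGF in all 7 clones, from 0.30 in clone 1 to 1.56 in clone 6. The difference was 0.87 ± 0.32 SE in Cic+/+ (limma adjusted p = 0.262) and 0.87 ± 0.37 SE in Cic-/- clones (adjusted p = 0.451), and neither passed. Over both genotypes Cdkn2b gave 0.87 ± 0.25 SE (limma adjusted p = 0.0664), and it passed with the clone as a random block (0.0092). Between genotypes it was 0.72 ± 0.35 SE higher in Cic-/- clones both with and without EGF (adjusted p = 0.489 and 0.485). Of the 3 genes beside Cdkn2a (Cdkn2b, Mtap and Dmrta1) none passed in any of the 5 comparisons. Between genotypes without EGF the 3 genes held 1 at an unadjusted p under 0.05, where 10.8 percent of all genes stood. Dmrta1 came nearest to passing, at -0.98 ± 0.22 SE in that comparison (limma adjusted p = 0.0667). Its EGF difference in Cic+/+ clones was -0.68 ± 0.20 SE (adjusted p = 0.156), which passed with the clone as a random block (0.0393).

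None of the 12 RB family and E2F genes tested passed in any of the 5 comparisons by limma. At an unadjusted p under 0.05, 1 was lower between genotypes with EGF, and 1 was higher and 1 lower without EGF. At the same threshold 3 were higher with EGF in Cic+/+ clones and 1 in Cic-/- clones, and 1 differed in its EGF effect. Of all genes, 10.6, 10.8, 12.5, 9.8 and 2.86 percent stood there in these 5 comparisons, in the same order. E2f7, an E2F that represses transcription, stood 1.24 ± 0.33 SE lower in Cic-/- clones with EGF (log2 difference -1.24, adjusted p = 0.158). Its EGF difference in Cic+/+ clones was 1.05 ± 0.31 SE (adjusted p = 0.142), which passed with the clone as a random block (0.0243). E2f1, an activator, gave 0.56 ± 0.21 SE with EGF in Cic-/- clones (adjusted p = 0.354). Over both genotypes it gave 0.50 ± 0.14 SE (limma adjusted p = 0.0568, and 0.0070 with the clone as a random block). None of the 9 genes of cyclin E, cyclin A and CDK2, and none of the 11 genes of p27 and cyclin turnover that were tested, passed in the 5 comparisons by limma, and in each list 0 or 1 gene per comparison stood at an unadjusted p under 0.05. Cks1b, a cofactor in the destruction of p27, gave 0.74 ± 0.30 SE with EGF in Cic+/+ clones (adjusted p = 0.329), and Ccna2, for cyclin A2, gave -1.02 ± 0.39 SE between genotypes with EGF (adjusted p = 0.361), and -0.49 without clone 5.

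Downstream of RB, the E2F target genes of S phase entry and the mitosis genes leaned lower in Cic-/- clones with EGF, but no single gene passed. Of the 19 S phase genes tested 18 had a negative difference, with a median of -0.72 where the median of all genes was 0.02, and 5 were lower at an unadjusted p under 0.05. Rrm2, a subunit of ribonucleotide reductase, had the largest difference with EGF at -1.29 ± 0.39 SE (limma adjusted p = 0.212). Of the 14 mitosis genes all 14 had a negative difference with EGF, with a median of -0.98, and 9 were lower at an unadjusted p under 0.05. At that threshold 10.6 percent of all genes stood in this comparison, in which 52.7 percent of all genes had a positive difference. Aurkb, a mitotic kinase, gave -1.49 ± 0.39 SE with EGF (adjusted p = 0.152). Without EGF the medians between genotypes were -0.39 for the S phase genes and -0.53 for the mitosis genes.

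Clone 5 had the lowest mean level in both lists. Its mean level of the mitosis genes was 7.64 with EGF and 7.45 without, where the other Cic-/- arrays were at 8.66 to 8.99 and the Cic+/+ arrays at 8.88 to 9.73. For the S phase genes it was 6.91 with EGF and 7.14 without. It stood less apart without EGF, where clone 6 was at 7.49 and Cic+/+ clone 3 at 7.51. Leaving clone 5 out, a step added after the data had been seen, brought the median difference between genotypes with EGF to -0.21 for the S phase genes and -0.60 for the mitosis genes. Without EGF it brought them to -0.15 and 0.00. With EGF, Rrm2 gave -0.81 and Aurkb -1.03 without clone 5. Clone 5 was also the clone in which Cdkn1c and Mbp were higher with EGF and in which Cdkn2a reached 8.23.

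With EGF in Cic+/+ clones all 19 S phase genes and all 14 mitosis genes had a positive difference, where 49.6 percent of all genes did, with medians of 0.47 and 0.40. None passed by limma, and 2 and 0 had an unadjusted p under 0.05, where 12.5 percent of all genes stood. The mitosis mean was 8.959, 9.733, 9.063 and 9.615 with EGF in clones 1 to 4 and 8.875, 8.962, 8.961 and 9.019 without. The rise was thus small in clones 1 and 3. In Cic-/- clones the medians were 0.25 and -0.07, and 0.49 and -0.20 without clone 5. The median of all genes was 0.00 in Cic+/+ and 0.01 in Cic-/- clones. The median over the 10 G1 genes was 0.10 and 0.07 in the same comparisons, and -0.09 and -0.03 between genotypes with and without EGF.

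Among 17 transcription factors known to act upstream of D cyclins or p57 that were tested, 2 were lower with EGF over both genotypes, where 3.91 percent of all genes passed. Hes5, a Notch effector of neural stem cells, fell by 1.06 ± 0.27 SE (limma adjusted p = 0.0405), and Mycl, a relative of Myc, fell by 0.83 ± 0.20 SE (adjusted p = 0.0369). The Mycl direction turned with the brightest probeset, to 0.32, and neither gene passed with the mean or the brightest probeset. Without clone 5, 1 of the 2 passed, Hes5 at -1.28 (adjusted p = 0.0280), and Mycl gave -0.85 (adjusted p = 0.0598). Myc itself gave 0.54 ± 0.16 SE (adjusted p = 0.0777) and was higher with EGF in all 7 clones. With the clone as a random block its adjusted p was 0.0143. None of the 17 passed in the 5 comparisons by limma. At an unadjusted p under 0.05, 2 were higher and 3 lower with EGF in either genotype. Between genotypes 1 was lower in Cic-/- clones with EGF and 1 without, and 0 differed in their EGF effect. Of all genes, 12.5 percent stood at that threshold for EGF in Cic+/+ and 9.8 percent in Cic-/- clones. Between genotypes 10.6 percent stood there with EGF and 10.8 percent without, and 2.86 percent did for the difference of the EGF effects. With the clone as a random block, Mycl (-0.85, adjusted p = 0.0397) and Tcf7l2, a transcription factor of the Wnt pathway (-0.58, adjusted p = 0.0212, chosen after its values were seen), fell with EGF in Cic+/+ clones.

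Cdkn1c lies in an imprinted cluster, in which it is expressed from the maternal chromosome. None of the 12 other genes of this cluster that were tested passed in any of the 5 comparisons by limma. At an unadjusted p under 0.05 there was 1 between genotypes with EGF, 1 for EGF in Cic-/- clones and 0 in the other 3 comparisons. Of all genes, 10.6 and 9.8 percent stood there in the first 2 of these, and 2.86 to 12.5 percent in the other 3. Tnfrsf23 gave the largest difference, at 0.77 ± 0.25 SE between genotypes with EGF (adjusted p = 0.257). In the EGF comparison in Cic+/+ clones, where Cdkn1c fell by 1.72, the largest were Trpm5 at 0.31 ± 0.25 SE and Tssc4 at -0.29 ± 0.27 SE.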

How the data were processed

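Total RNA of 14 cultures was measured on Affymetrix arrays. The deposited table holds log2 values per probeset made by the authors with RMA, per the submitters' processing notes, a method that corrects background, normalizes arrays to 1 distribution and summarizes probes; the RMA version and the build of the array annotation were not given in the sources used here. RMA forces equal array distributions, so a shift of most genes would not show.

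Of 269751 probesets, 233753 name 1 gene, 5106 several and 30892 none; symbols were updated through RefSeq (20875 of 23152 found, 2189 updated by synonym, 88 kept). A gene took the median of its probesets (median 8 per gene). The dimmest 25% (log2 mean under 4.40, 5788 genes) were left out. Group means over all 14 arrays were fitted with limma 3.58.1 in R 4.3.3 (lmFit, eBayes), without a block, and p-values adjusted by Benjamini-Hochberg over 17364 genes, with 0.05 as threshold. The 5 comparisons were genotype with EGF, genotype without EGF, EGF in each genotype, and the difference of the EGF effects. Intervals are 95%.

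Arrays of 1 clone come from 1 animal and are paired by it. Their deviations from group means correlated at 0.474, 0.323, 0.459, 0.337, 0.584, 0.156 and 0.616 in clones 1 to 7 (consensus for the block 0.348). The fit was tested on simulated data. Alternatives were another probeset summary, dim filter, centring, normalization or variance model, a fit to the arrays compared alone, clone as a random or fixed block, and each clone left out. Single probesets, the comparison over both genotypes and lists without clone 5 were added after the data had been seen. The members and lists were chosen with earlier results of these data known. All 10 members are named; of each other list, up to 4 genes that passed and up to 2 that did not, by largest change, and the 5 genes most like Cdkn1c, Ccnd1 and Ccnd2, leaving out predicted genes and genes with 1 probeset. A marker of the neural stem cell list is not reported here. Motifs were searched in Python 3.11.15.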

Additional observations from a re-analysis of the deposited data

Results flagged for a closer look

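The EGF effect on Cdkn1c differed between genotypes by 1.45 on the log2 scale: it was negative in all 4 Cic+/+ clones and smaller or positive in the 3 Cic-/- clones. These are values of the median over its probesets. On the probeset that passed for EGF in Cic+/+ clones the genotypes overlapped. Of 15 genes whose EGF effect was compared by a two-sided exact permutation test over clones, Cdkn1c was the 1 with p under 0.05 (p = 0.0286, the smallest possible, unadjusted). This p requires that the EGF differences of the clones do not overlap between genotypes. Of all genes, 6.25 percent did not overlap in this way, so the call alone does not set Cdkn1c apart. The limma interaction over all genes gave an adjusted p of 1.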

How the results depend on the processing

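With 3 or 4 clones per genotype, calls near the threshold moved. Over the 10 genes, 943 of 980 values under an alternative stayed on their side of the threshold (66 of these, called under neither setting, changed sign), 19 lost the call, 17 gained one and 1 reversed. For genotype without EGF the 1 call (Cdkn1c) became 0 with the brightest probeset, without the dim filter, with quantile normalization and with only the arrays compared, and 0 to 0 with each clone left out; the Cdkn1c adjusted p was 0.238, 0.0589, 0.0552 and 0.122 under the former 4. For EGF in Cic+/+ clones 1 call became 2 with the clone as a random or a fixed replicate block (Cdkn1c and Ccnd1), and 0 to 1 with a clone left out (0 without clone 2 or 4). For EGF over both genotypes 1 call became 4 with the random or fixed block, 4 with the mean of probesets (Cdkn1c, Cdkn2a, Ccnd1 and Ccnd2), 3 with the trended robust fit and 2 with the stricter dim filter; with a clone left out it was 0 (without clone 2, 4 or 6) to 2 (without clone 1). The block changed no other count of calls among the 10. Cdkn2a with EGF in Cic+/+ clones reversed to 1.06 with the brightest probeset, which made it the 1 call there in place of Cdkn1c, and Mycl over both genotypes to 0.32. The cause was not tested. In simulated data the fit recovered 60% of genes changed by 1 on the log2 scale and 10% of those changed by 0.5, so small changes could be missed. Genes were changed only in the Cic-/- group without EGF and scored only for genotype without EGF. The data simulated for the fit without a block held no clone effect. Recovery in the EGF comparisons and the interaction was not simulated.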
